A study of Mus musculus with 6 samples.

Results

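The regions described here were open in astrocytes with and without the glucocorticoid receptor (GR), but their ATAC-seq peaks were much weaker in every GR-KO library than in every GR-con library. Peaks of all 6 libraries were merged where they overlapped by at least 1 bp, and a region was shared when every library had a peak in it. Members were selected on the −log10 p that the peak caller gave each peak, taking the highest value in the region for each library. The lowest GR-con value had to be at least 20 and at least 2 times the highest GR-KO value. Of 185015 merged regions 90301 were shared, 59033 of the shared regions had a lowest GR-con value of at least 20 (called eligible below), and 438 were members. Members were 0.485% of the shared regions. The mirrored rule, with GR-KO in place of GR-con, found 120 regions, or 0.133% of the shared regions. Over all shared regions the median −log10 p was lower in GR-KO (41.3 to 42.8) than in GR-con libraries (46.5 to 47.0). With −log10 p scaled by the library median, the rule found 310 members, and the mirrored rule was not run on scaled values. Since these −log10 p values chose the members, the values and the fold differences that go with them are given as descriptions, without a test.

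Chromatin accessibility was measured at P21 in nuclei of astrocytes from primary visual cortex (V1), with 3 libraries per group. All mice were GR fl/fl and were injected in V1 at P0–P1. Every mouse received an AAV2/5 in which GfaABC1D drove a recombinase, a linking peptide and the nuclear tag EGFP-KASH, with the 4x6T element behind them. The recombinase was the inactive ΔCre in GR-con and Cre in GR-KO. Nuclei carrying the EGFP-KASH tag were sorted, each library pooled tissue from several mice, and GfaABC1D is an astrocyte promoter, so that a nucleus was sampled only if the virus had reached it and the promoter was active. In pooled nuclei, weaker accessibility in every nucleus and loss of accessibility in some of them cannot be told apart.

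GR is a nuclear receptor that enters the nucleus when it binds glucocorticoids and attaches to DNA as a dimer, with each subunit reading a short half-site. A pair of half-sites facing each other across a short spacer forms the glucocorticoid response element. In ATAC-seq, the transposase Tn5 inserts adapters where DNA is not wrapped in nucleosomes, so that enhancers and promoters in use appear as peaks.

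A full response element, AGAACA followed by 3 free bases and TGTTCT, was found within 100 bp of the summit of 8 members. These 8 sites are shown because they hold the complete element. Each is printed with 10 bases to either side, plus strand, mm10, with the response element in capitals. The element is named by the nearest protein-coding transcription start site (TSS) and lies at chr2:160805310-160805324 (*Zhx3*), chr1:91199998-91200012 (*Ramp1*), chr10:59974273-59974287 (*Ddit4*), chr12:67213041-67213055 (*Mdga2*), chr13:102012194-102012208 (*Pik3r1*), chrX:10519402-10519416 (*Tspan7*), chr10:116987635-116987649 (*Best3*) and chr10:27103835-27103849 (*Arhgap18*).
Zhx3: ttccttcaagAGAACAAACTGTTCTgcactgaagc
Ramp1: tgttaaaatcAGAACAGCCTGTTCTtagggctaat
Ddit4: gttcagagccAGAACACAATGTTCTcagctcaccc
Mdga2: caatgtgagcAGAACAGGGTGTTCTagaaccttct
Pik3r1: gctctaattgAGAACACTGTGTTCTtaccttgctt
Tspan7: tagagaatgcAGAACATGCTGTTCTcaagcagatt
Best3: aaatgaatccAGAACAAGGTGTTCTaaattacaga
Arhgap18: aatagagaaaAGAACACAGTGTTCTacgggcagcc

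Sites close to the element, complete ones included, were also counted. A site that matched at least 10 of the 12 fixed letters was present at 39.7% of the 58 members with a ratio of 4 or more and at 1.58% of other eligible regions. The 201-bp windows about the strongest GR-con summit are shown for 4 members that rank 1, 4, 5 and 12 by the ratio of lowest GR-con to highest GR-KO value, with the closest match to the element in capitals (for *Adamts20*, the relaxed GR motif defined below). They lie at chr14:60533803-60534003 (*Spata13*), chr15:94013327-94013527 (*Adamts20*), chr10:31318548-31318748 (*Hddc2*) and chr13:102940578-102940778 (*Mast4*). Of the 12 fixed letters, the best site matched 9 at *Spata13*, 10 at *Adamts20*, 11 at *Hddc2* and 11 at *Mast4*. The windows were picked to show such sites, and the best site at rank 6, nearest *Spaca3*, matched only 7.
Spata13: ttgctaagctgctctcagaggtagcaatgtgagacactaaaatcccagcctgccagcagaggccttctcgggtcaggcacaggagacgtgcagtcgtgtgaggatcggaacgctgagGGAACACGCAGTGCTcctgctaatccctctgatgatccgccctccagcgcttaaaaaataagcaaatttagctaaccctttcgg
Adamts20: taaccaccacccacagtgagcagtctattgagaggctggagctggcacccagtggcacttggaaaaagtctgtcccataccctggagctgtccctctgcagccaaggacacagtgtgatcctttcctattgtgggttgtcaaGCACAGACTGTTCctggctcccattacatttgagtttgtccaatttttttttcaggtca
Hddc2: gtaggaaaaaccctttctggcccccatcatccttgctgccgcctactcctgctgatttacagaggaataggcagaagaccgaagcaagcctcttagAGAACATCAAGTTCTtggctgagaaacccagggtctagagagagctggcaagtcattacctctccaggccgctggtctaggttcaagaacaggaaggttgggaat
Mast4: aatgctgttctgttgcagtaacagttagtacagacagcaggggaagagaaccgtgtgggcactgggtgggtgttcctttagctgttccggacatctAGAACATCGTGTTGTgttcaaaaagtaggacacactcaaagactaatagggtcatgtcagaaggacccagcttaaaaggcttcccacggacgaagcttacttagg

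The 6 lists held 179462 to 198929 peaks. Each peak's fold enrichment and p-value together gave a whole number of fragment ends stacked at the summit (here summit coverage) and a local background, and the lowest local background of a library, which scales with its depth, was 4.28 to 4.92. GR-con 3 stood apart, with the longest list, the highest background (1.148 times the lowest) and the weakest GR-con values at the members. It held the lowest of the 3 GR-con values at 319 members, or 72.8%, against 37.6% of the other eligible regions. Without it the rule found 855 regions, against 570 without GR-con 1 and 570 without GR-con 2. The labelled cell type was checked at marker promoters. All 12 astrocyte markers had a promoter peak in every library, with summed levels of 883 to 1020 times background in GR-con and 949 to 1025 in GR-KO. Both oligodendrocyte precursor markers, 3 of 6 neuronal, 2 of 5 microglial, 1 of 5 oligodendrocyte and 1 of 4 endothelial markers also had a peak in every library, and the promoters of *Mog*, *Mag*, *Mobp*, *Cx3cr1*, *Csf1r*, *Aif1*, *Pecam1* and *Tek* had none in any library. The summed level of the 2 precursor markers was 80.6 to 102 in GR-con and 80.3 to 85.7 in GR-KO. The summed endothelial level was 3.73 to 4.68 in GR-con and 6.77 to 8.98 in GR-KO. The part of other cells in the members' values was not tested.

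At the members, the median −log10 p was 69.1, 71.4 and 54.7 in GR-con 1, 2 and 3. It was 15.4, 14.2 and 14.9 in GR-KO 1, 2 and 3. Over all shared regions the medians were much closer, at 46.5 to 47.0 in GR-con and 41.3 to 42.8 in GR-KO libraries. The median summit coverage of the members, divided by each library's background, was 23.3, 24.2 and 17.5 in GR-con and 7.27, 7.24 and 7.36 in GR-KO. The plot of coverage by library shows that GR-KO libraries were alike at the members, and that the lower GR-con values belonged to GR-con 3. Peaks were also narrower, with a median width at the members of 588 to 606 bp in GR-con and 347 to 356.5 bp in GR-KO, against 444 to 484 bp over all shared regions.

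**Figure D1:**
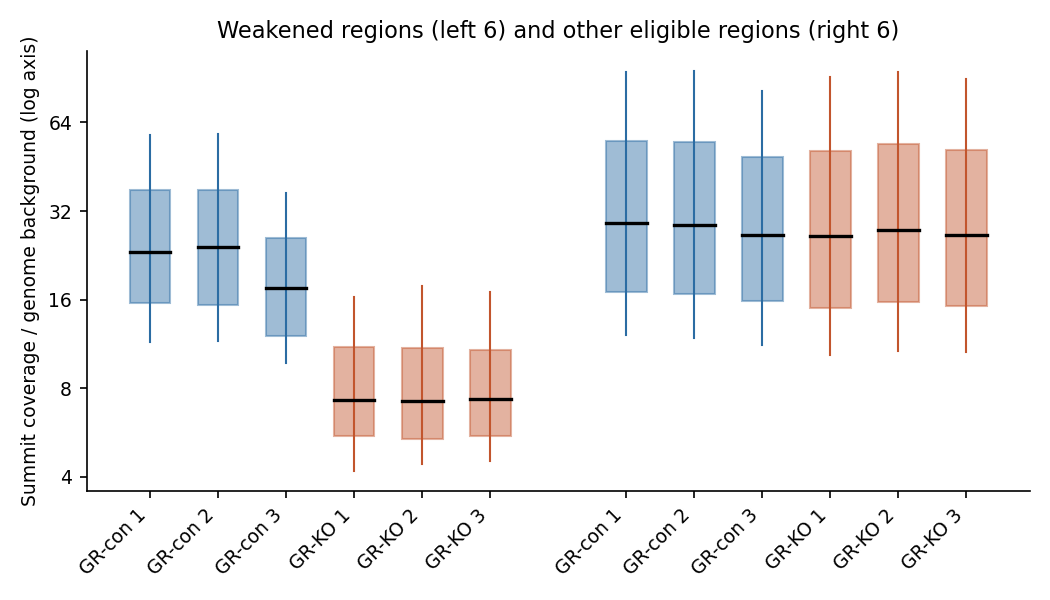
Summit coverage divided by the genome background of each library (log axis) for the 438 members (left) and the 58595 other eligible regions (right), with GR-con in blue and GR-KO in orange. Boxes span the quartiles, black lines are medians and thin lines run from the 10th to the 90th percentile; member medians are 17.5 to 24.2 in GR-con and 7.24 to 7.36 in GR-KO, while other regions have medians of 26.2 to 29.1 in all 6 libraries.

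The members were weaker in GR-con than the typical eligible region. Their lowest GR-con value ran from 20.1 to 346 with a median of 51.4, against a median of 80.0 for the other eligible regions, and their median rank by this value was percentile 34.5 among the eligible regions. By the rule, each kept a peak in every GR-KO library. The highest GR-KO value was below 20 at 248 members and below 10 at 50 members, and the summit in GR-KO lay within 50 bp of the GR-con summit at 367 members and more than 200 bp away at 24. Mean coverage over background was 2.62 times as high in GR-con as in GR-KO at the median member (quartiles 2.21 and 3.40), and 1.04 times as high at the median shared region.

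The size of the difference depended on the measure that was read. Every GR-con coverage over background exceeded every GR-KO one at all 438 members, against 14% of shared regions. Every GR-con fold enrichment exceeded every GR-KO one at 434 members, against 10.5% of shared regions. The median ratio of mean fold enrichment was 1.94, lower than that of coverage, because fold enrichment divides by the local background and this too was higher in GR-con at the members (median ratio 1.34, against 1.00 over shared regions). Because −log10 p was the measure of choice, none of these counts is independent of the rule.

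The rule itself set where the group ended. The ratio ran from 2.00 to 8.42 with a median of 2.45, and 121 members reached 3 and 33 reached 5. Just inside the ratio of 2 stood regions nearest *Lrtm1* (2.0015), *Ppp1r12b* (2.0033) and *Aff3* (2.0094), and just outside it regions nearest *Nectin3* (1.9992), *Rere* (1.9988) and *Igdcc3* (1.9974). At the minimum of 20, the lowest GR-con values just inside were 20.1 (*Csnk1e*), 20.5 (*Slc29a3*) and 20.5 (*Pros1*), and those just outside were 19.9 (*Pdhx*), 19.6 (*Tbl1xr1*) and 19.6 (*Bspry*).

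To read the drop in libraries that did not enter the minimum and the ratio, these steps were applied to 2 GR-con and 2 GR-KO libraries, and the remaining GR-con library was then set against the remaining GR-KO library. The held-out libraries still took part in the merging, and each region had to have a peak in all 6. Over the 9 possible choices, 857 to 1247 regions were selected. The held-out GR-con value was at least 2 times the held-out GR-KO value at 51.1 to 65.6% of them. It was so at 4.26 to 5.22% of the other regions that met the minimum, or 4.67% when the 9 choices were summed. Over all shared regions, with the selected ones and those below the minimum included, it was so at 8.04 to 8.71%. The held-out GR-con value was the higher at 89.3 to 93.6% of the selected regions and at 53.8 to 64.1% of the others. The share of selected regions at 2 times or more was lowest, 51.1 to 56%, in the 3 choices that held out GR-con 3. The 9 choices share libraries, so they are not 9 independent readings.

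**Figure D2:**
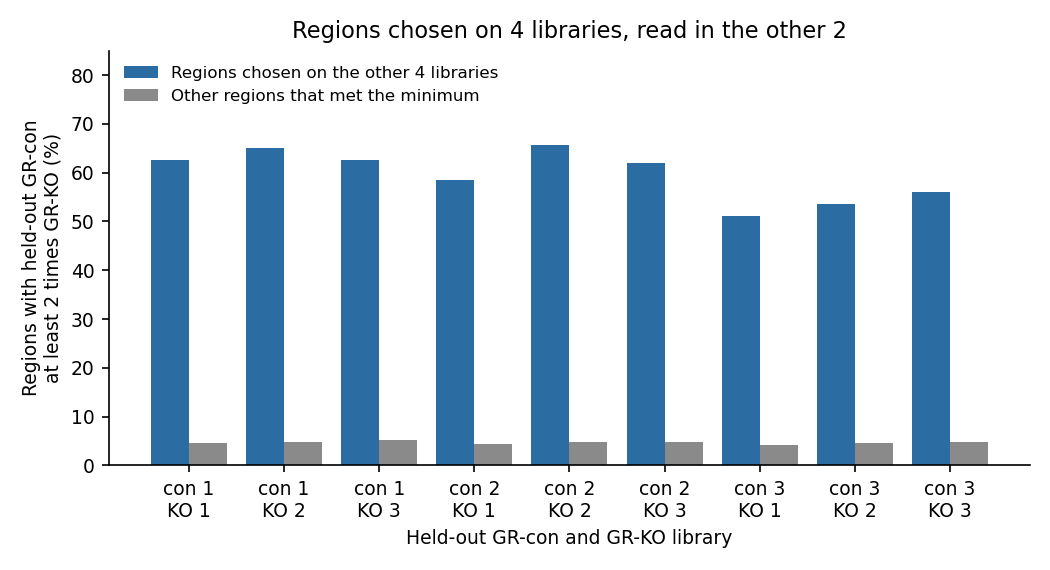
Share of regions (%) whose held-out GR-con −log10 p was at least 2 times the held-out GR-KO value, for regions chosen on the other 4 libraries (blue) and for the other regions that met the minimum in the 2 GR-con libraries used (grey), for each of the 9 pairs of held-out libraries (con, GR-con; KO, GR-KO). The blue bars range from 51.1 to 65.6% and the grey bars from 4.26 to 5.22%. Over all shared regions, chosen ones included, the share was 8.04 to 8.71% (not drawn).

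The largest ratio, 8.42, was at an intergenic region nearest *Spata13* (chr14:60533573-60534249). Its −log10 p was 65.2, 60.8 and 61.6 in GR-con 1, 2 and 3 and 3.63, 5.78 and 7.22 in GR-KO 1, 2 and 3. Coverage was 116, 111 and 115 in GR-con and 22, 25 and 30 in GR-KO. In coverage not divided by background, the GR-con libraries were within a few counts of each other here, GR-con 3 included. GR-con 3 had the lowest GR-con fold enrichment, 7.42 against 7.91 in GR-con 1 and 7.61 in GR-con 2. The strongest GR-KO summit lay 252 bp from the GR-con summit.

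The region nearest *Lipg*, the gene of endothelial lipase, ranked second (chr18:74901421-74901924), with −log10 p of 76.9, 70.5 and 62.0 in GR-con and 7.79, 7.51 and 6.75 in GR-KO. A region in an exon of *Stk10*, a serine/threonine kinase, ranked 3 and was nearest the TSS of *Fbxw11*, with 113, 117 and 88.5 in GR-con and 11.5, 6.70 and 11.6 in GR-KO. The 3 GR-KO values at *Lipg* lay close together and GR-KO 2 was the lowest at *Stk10*. The region nearest *Adamts20*, a secreted metalloprotease gene, was one of the strongest of the group although its TSS was 390831 bp away. Its coverage was 282, 257 and 187 in GR-con and 39, 26 and 37 in GR-KO, and fell by 2.82 on the log2 scale after division by background.

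Within *Hddc2* (chr10:31318249-31319157), coverage was 220, 197 and 115 in GR-con and 19, 19 and 26 in GR-KO. GR-con 3 was far below GR-con 1 and 2 there and, as at every member, still above every GR-KO library. An intronic region of *Arhgef28* had a coverage of 254, 227 and 164 in GR-con and 28, 34 and 33 in GR-KO. The largest drop in coverage was in an intron of *Rin2*, whose product acts on Rab5 (rank 16, nearest TSS *Naa20*, chr2:145848920-145849855), with 260, 280 and 155 in GR-con and 23, 31 and 25 in GR-KO. Mean coverage over background was 8.69 times as high in GR-con there. The others of the first 15 were nearest *Spaca3* (in an intron of *Asic2*), *Dnm3*, *Impad1*, *Nup98*, *Sult1a1*, *Mast4*, *Dnajc3*, *Far1* and *Rmi1*, with ratios of 7.25 to 6.48. Groups did not overlap at any of them, as the rule requires.

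The members that were strongest in GR-con kept strong peaks in GR-KO. The highest of the lowest GR-con values was at an intergenic region upstream of *Lsamp*, a neuronal adhesion gene (chr16:39698057-39698995), where −log10 p was 426, 482 and 346 in GR-con and 162, 132 and 136 in GR-KO. In an intron of *Asic2*, an acid-sensing channel gene, it was 459, 428 and 331 in GR-con and 97.7, 114 and 82.6 in GR-KO. Near *Rtp1* it was 414, 485 and 325 in GR-con and 114, 144 and 127 in GR-KO. The GR-KO values of these 3 regions exceeded the GR-con median of the members. The other 2 of the 5 strongest were in *Etnppl* (below) and near *Ksr1*, a scaffold of the MAP kinase cascade, with 388, 433 and 297 in GR-con and 66.7, 99.9 and 50.3 in GR-KO.

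Sequence was not used by the rule. A relaxed GR motif, GNACANNNTGTNC, read on both strands (it is its own reverse complement) within 100 bp of the strongest GR-con summit, was present at 84 of 438 members, or 19.2% (exact 95% interval 15.6 to 23.2%). It was present at 274 of the 58595 other eligible regions, or 0.468% (0.414 to 0.526%), and at 0.546% of all shared regions. A further 1669 regions had a peak in every GR-con and no GR-KO library (called GR-con-only below). Of these, 113 held the motif, or 6.77% (5.61 to 8.08%), so it was not particular to the members. The motif was found at 0 of the 120 regions that strengthened, for which the upper limit is 2.5% by 3 counts and 3.03% by the exact 95% interval. The full element was present at 8 members, or 1.83%, at 5 GR-con-only regions, or 0.3%, and at 5 other eligible regions, or 0.00853%. All full elements also hold the relaxed motif. These intervals cover counting error only and treat regions as independent.

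Sites close to the element, complete ones included, were counted in all sets. A site that matched at least 10 of the 12 fixed letters of the full element was present at 25.6% of members. Its share was 10% in GR-con-only regions and 1.58% in other eligible regions. At least 9 letters matched at 56.2% of members and 10.6% of the others. Of the 354 members without the relaxed motif, 47.2% held a site with at least 9 matching letters. The half-site AGAACA, read as TGTTCT on the other strand, was present at 43.8% of members, 15.9% of other eligible regions and 17.5% of strengthened regions. In GR-con-only regions its share was 31.7%. Among all 2080 words of 6 bases it had the largest difference in share between members and other eligible regions, and GGAACA followed with 40% and 13.8%. In the other direction, CCCGCC was present at 5.25% of members and 19.8% of the others.

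The other motifs searched differed less. The NFI half-site TTGGCA was present at 28.5% of members (exact 95% interval 24.4 to 33.0%) and 20.9% of other eligible regions, and at 31.7% of the strengthened regions. Its share was 21.4% at members with the GR motif and 30.2% at members without it. The SOX word ACAATG was present at 12.6% of members and 8.72% of the others, and the LHX homeobox word TAATTA at 6.62% and 5.37%. The AP-1 motif TGANTCA had a share of 5.48% at members and 5.40% at other eligible regions, and the E-box CAGCTG one of 16.7% and 16.2%. The ROR half-site AGGTCA had 11.6% and 10.1%, and the CRE TGACGTCA 0.685% and 0.993%. For these last 4 motifs and for TAATTA the members' exact interval included the share of the other regions.

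The share with the GR motif changed with the ratio beyond the members as well. It was 0.0775% of eligible regions with a ratio under 0.5, 0.293% of those between 0.8 and 1, 2.07% of those between 1.25 and 1.5 and 6.43% of the 840 between 1.5 and 2. Among members it was 15.1% of the 317 with a ratio of 2 to 3, 33.3% of the 63 between 3 and 4 and 25.9% of the 58 at 4 or more. The exact intervals of the top 2 classes overlapped (22.0 to 46.3% and 15.3 to 39.0%), so their order cannot be read. The 840 regions just below the limit had the motif far more often than the regions whose groups were alike.

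**Figure D3:**
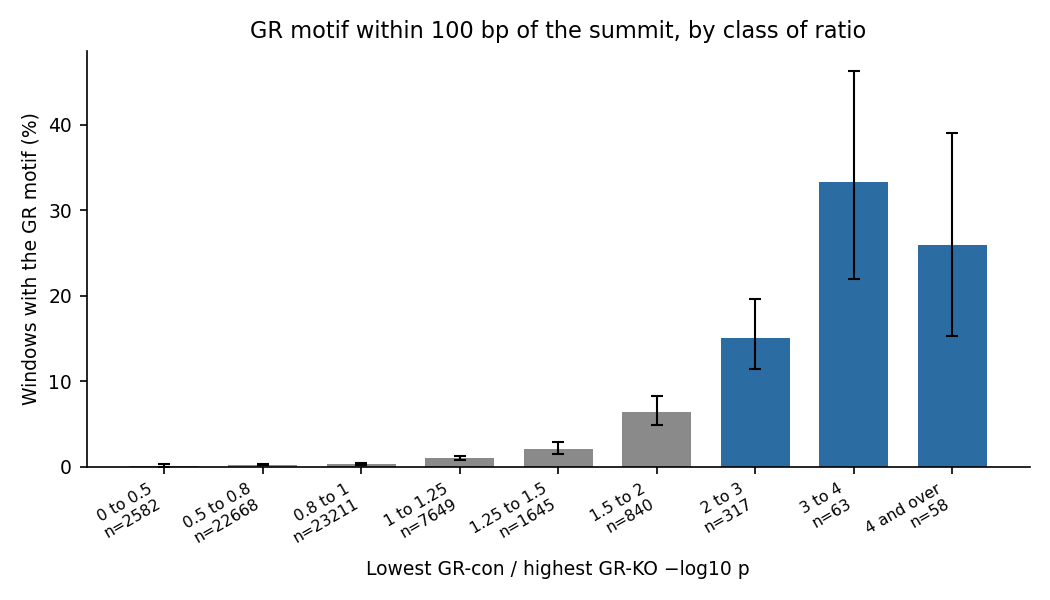
Share of 201-bp windows with the relaxed GR motif (%) among eligible regions, in classes of the ratio of the lowest GR-con to the highest GR-KO −log10 p, with the number of regions in each class. Blue bars are members, grey bars other regions and whiskers exact 95% binomial intervals; the share is 0.0775% in the lowest class and 15.1, 33.3 and 25.9% in the 3 classes of members.

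The eligible regions can also be grouped by the motif, as a description with the −log10 p values that the rule used. Regions became eligible through GR-con alone, so those with the motif that were weak in GR-con were left out before the order was counted. Of 358 eligible regions with the motif, 84 were members, or 23.5%, and every GR-con −log10 p exceeded every GR-KO one at 246, or 68.7%. The reverse order held at 2. Of 58675 eligible regions without the motif, 0.603% were members, every GR-con value was the higher at 17.6% and every GR-KO value at 6.52%. Of the 13 eligible regions with the full element, 8 were members and 12 had every GR-con value above every GR-KO value.

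Members with and without the motif are described here by values that took part in choosing them, with no test. With the motif, the lowest GR-con value had a median of 75.7 (quartiles 42.6 and 118), against 46.9 (31.96 and 78.8) without the motif. Mean coverage over background was 3.10 times as high in GR-con at the median member with the motif (2.64 to 4.34) and 2.53 times at the median member without it (2.16 to 3.24). The quartile ranges overlapped. The motif sat close to the summit, at a median distance of 27.5 bp, within 25 bp at 38 and within 50 bp at 66 of the 84 members. Beyond 100 bp it was rare. Counted out to 500 bp, the members had 103 motifs, of which 84 were within 100 bp.

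**Figure D4:**
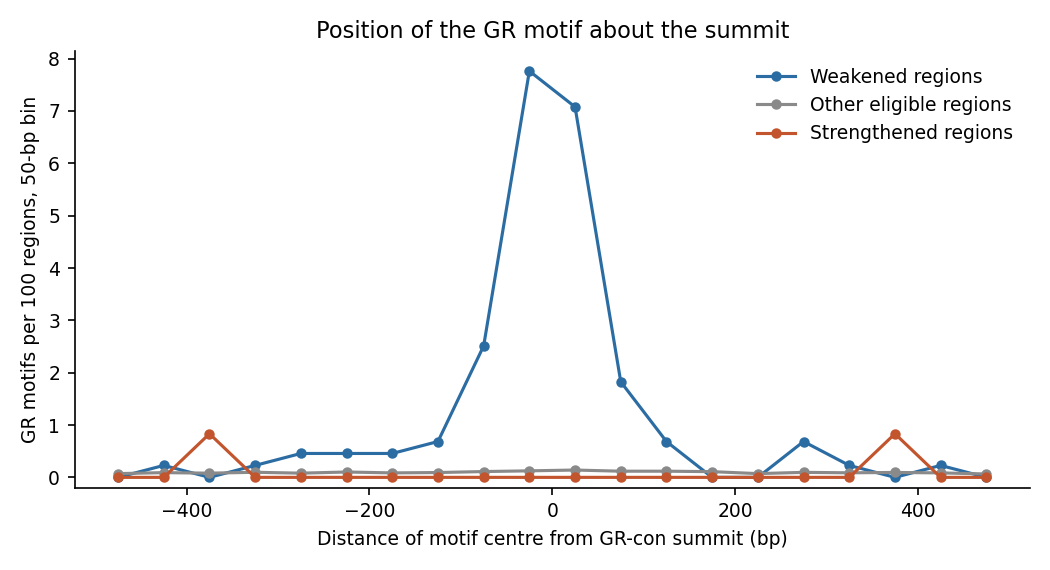
GR motifs per 100 regions in 50-bp bins by the distance of the motif from the strongest GR-con summit (bp), for members (blue), other eligible regions (grey) and strengthened regions (orange). The members reach 7.76 and 7.08 motifs per 100 regions in the 2 bins next to the summit, while other eligible regions stay between 0.0649 and 0.140 in every bin.

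The 8 members with the full element differed widely in strength and in drop. At the first, in an intron of *Zhx3*, which encodes a zinc-finger homeobox repressor (chr2:160804830-160805629), coverage was 372, 384 and 291 in GR-con and 68, 40 and 73 in GR-KO. In an intron of *Ramp1*, which encodes a subunit of the CGRP receptor, it was 149, 149 and 95 in GR-con and 19, 27 and 26 in GR-KO. At *Mdga2*, which encodes a membrane-anchored synaptic protein, it was 274, 339 and 174 in GR-con and 55, 42 and 53 in GR-KO. GR-con 3 was the lowest GR-con library at all 3. The region nearest *Pik3r1*, a regulatory subunit of PI3-kinase, had 230, 228 and 189 in GR-con and 41, 44 and 62 in GR-KO. In *Tspan7*, a tetraspanin gene, coverage was 83, 88 and 71 in GR-con and 39 in each GR-KO library, so that coverage over background fell by 1.02 on the log2 scale, the smallest drop of the 8. In *Best3*, which encodes a bestrophin channel, it was 67, 54 and 59 in GR-con and 27, 28 and 21 in GR-KO. The groups were separate at both, as at every member. The region nearest *Arhgap18*, in an intron of *Lama2*, had 186, 209 and 147 in GR-con and 48, 64 and 69 in GR-KO, and *Ddit4* is described below.

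Members were rarely promoters. The summit lay within 500 bp of a protein-coding TSS at 10 members, or 2.28%, against 19.9% of the other eligible regions and 14.2% of shared regions. Introns held 234 members (53.4%), intergenic DNA 183 (41.8%) and exons 11 (2.51%). The median distance to the nearest TSS was 39361 bp for members and 19333 bp for other eligible regions, and 24.4% of members lay more than 100 kb away, against 16.7%. The strengthened regions were also distal, with 2.5% at promoters and a median distance of 50196 bp. So were the GR-con-only regions, with 1.74% at promoters and a median distance of 40102 bp. The windows of members had a median GC content of 49.8%, against 53.2% in the other eligible regions. Of the members 427 were on autosomes and 11 on X.

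The promoter with the largest drop was that of *Sult1a1*, which encodes a phenol sulfotransferase (chr7:126676075-126676798, rank 11). Its −log10 p was 205, 183 and 143 in GR-con and 5.84, 21.6 and 18.6 in GR-KO. Fold enrichment averaged 18.6 ± 1.65 over the GR-con and 5.54 ± 2.01 over the GR-KO libraries (SD, n = 3 each). The window had no relaxed GR motif but a site with 10 of the 12 letters. The other 9 promoter members were at *Ccnd3* (cyclin D3), *Ank3* (ankyrin G), *Tcim*, *Map7d2*, *Cdh19*, *Heph* (hephaestin, a ferroxidase), *Slc10a6*, *Arhgef28* and *Sds* (serine dehydratase). Of these *Map7d2* and *Slc10a6* held the GR motif. At *Map7d2*, a microtubule-associated protein gene, coverage was 135, 131 and 100 in GR-con and 38, 46 and 34 in GR-KO. At *Slc10a6*, a transporter of sulfated steroids, it was 96, 106 and 97 in GR-con and 56, 42 and 48 in GR-KO.

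Of 26 genes known to be induced by glucocorticoids, 11 (42.3%) had a member within 100 kb of their TSS, against 849 of 21840 protein-coding genes (3.89%). No strengthened region lay within that distance of any of the 26, against 1.03% of protein-coding genes. With 26 genes, such a count cannot be told apart from that background share. The 11 were *Fkbp5*, *Tsc22d3*, *Zbtb16*, *Klf9*, *Klf15*, *Errfi1*, *Ddit4*, *Cdkn1a*, *Map3k6*, *Arl4d* and *Sult1a1*. *Per1*, *Sgk1*, *Dusp1*, *Nfkbia*, *Mt1*, *Mt2*, *Pdk4*, *Lcn2*, *Hif3a*, *Plin4*, *Mertk*, *Cebpb*, *Cebpd*, *Bcl6* and *Gadd45g* had none within 100 kb. All 26 had an eligible region in that distance. Among the 18918 protein-coding genes that had one, 4.49% had a member. The number of listed genes with a member was 6 with a ratio of 3 or with peaks wider than 200 bp, 7 by coverage over background and 17 with a ratio of 1.5. The list was drawn up with earlier results of these data known, distance does not show which gene a region acts on, and no expression was measured here.

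Feedback on the receptor itself is represented by *Fkbp5*, a co-chaperone that lowers the affinity of GR for its ligand. The member lay in an intron, at -13579 bp from the TSS (negative values are upstream; chr17:28455161-28455656). Coverage was 79, 72 and 87 in GR-con and 20 to 33 in GR-KO, and the local background was at the genome level in every library. Fold enrichment averaged 14.6 ± 0.739 over the GR-con and 4.93 ± 1.10 over the GR-KO libraries (SD, n = 3 each). GR-con 3 had the highest coverage here but not the highest fold enrichment or coverage over background. At *Tsc22d3*, which encodes the anti-inflammatory leucine zipper protein GILZ (chrX:140528838-140529635), coverage was 54, 61 and 52 in GR-con and 24, 17 and 28 in GR-KO.

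Among transcription factors, *Zbtb16*, a zinc-finger repressor gene, had 3 members in its introns, 47753 to 98262 bp downstream of the TSS. The strongest (chr9:48737253-48737938) held the GR motif, with a coverage of 481, 525 and 327 in GR-con and 156, 92 and 145 in GR-KO. The second had 204, 204 and 124 in GR-con and 44, 50 and 34 in GR-KO, and the weakest 72, 54 and 46 in GR-con and 27, 25 and 25 in GR-KO. As at every member, coverage of all 3 was lower in every GR-KO library, and GR-con 3 was the lowest GR-con library at each. The Krüppel-like factor gene *Klf9* had a member on each side. The one at 73249 bp, in an intron of *Smc5*, had 90, 142 and 58 in GR-con and 23, 24 and 18 in GR-KO, and both held the GR motif. *Klf15* had a member upstream, at -6138 bp, with 152, 123 and 92 in GR-con and 31, 45 and 33 in GR-KO. Its intronic member, at 4945 bp, held the motif and had 340, 322 and 247 in GR-con and 115, 123 and 100 in GR-KO.

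The other genes of the list have varied roles. *Ddit4*, an inhibitor of mTORC1, had a member with the full element at -22442 bp (chr10:59974126-59974641), where coverage was 209, 216 and 160 in GR-con and 49, 39 and 41 in GR-KO. A second member, at -18102 bp and without the motif, had 294, 353 and 254 in GR-con and 99, 115 and 111 in GR-KO. At *Errfi1*, a feedback inhibitor of the EGF receptor, coverage was 83, 90 and 86 in GR-con and 31, 17 and 40 in GR-KO. The 2 *Ddit4* regions were lower in each GR-KO library, as every member was. The 3 GR-con libraries at *Errfi1* were closer together than the GR-KO ones. In an intron of *Cdkn1a*, the gene of the cell-cycle inhibitor p21, a member at 948 bp held the motif and had 134, 185 and 112 in GR-con and 66, 58 and 37 in GR-KO. At *Map3k6*, a kinase gene, it was 80, 92 and 73 in GR-con and 32, 16 and 23 in GR-KO. At *Arl4d*, which encodes a small GTPase, it was 186, 219 and 149 in GR-con and 43, 39 and 45 in GR-KO.

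**Figure D5:**
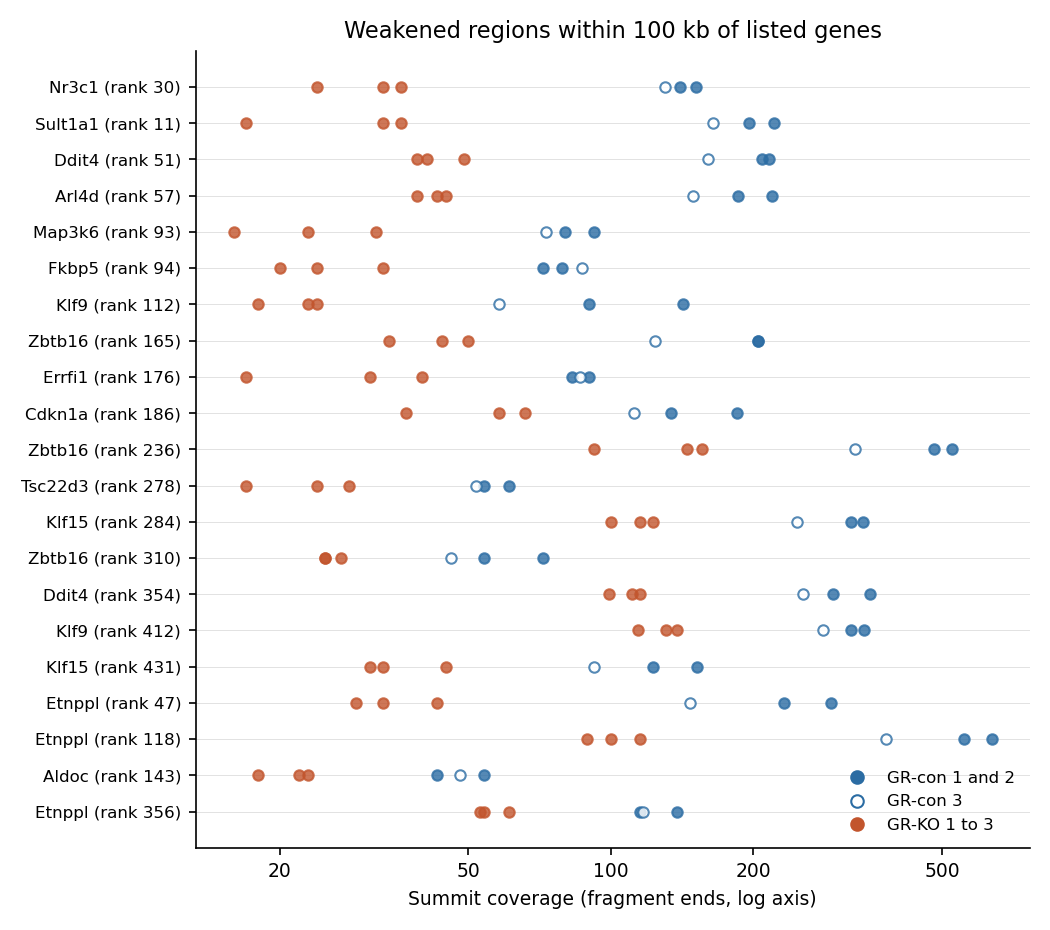
Summit coverage (number of fragment ends, log axis) in each library at the members within 100 kb of the TSS of *Nr3c1*, the glucocorticoid-inducible genes, *Etnppl* and *Aldoc*, with the rank of each member by ratio. GR-con 1 and 2 are filled blue points, GR-con 3 open blue points and GR-KO orange points. The groups are apart at every region, as at all 438 members, and GR-con 3 is the lowest GR-con library at most of the regions drawn.

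Other lists had fewer genes near a member. Of 7 astrocyte genes that the paper names, either for maturation or as loci bound by GR in astrocytes, *Etnppl* and *Aldoc* had one. Of 20 transport and identity genes of astrocytes 1 did (*Aldh1l1*, through the 2 members at *Klf15*), and of 11 matrix and protease genes 0. Beside the 3.89% of all protein-coding genes, 1 of 20 (5%) is near the background. A strengthened region lay near 1 gene in each of these last 2 lists (5% and 9.09%, against 1.03% of protein-coding genes). Of the 10 genes of the receptor and its chaperones only *Nr3c1* had a member nearby. Of marker genes of other cell types, 0 of 6 neuronal, 0 of 5 oligodendrocyte, 0 of 2 precursor and 0 of 5 microglial genes had a member, and 1 of 4 endothelial genes did (*Cldn5*). *Aldoc*, which encodes a glycolytic aldolase, had its member at -99186 bp, in an intron of *Supt6*, with a coverage of 54, 43 and 48 in GR-con and 23, 18 and 22 in GR-KO. The lists are small, and these shares differ by 1 or 2 genes.

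*Etnppl*, which encodes an ethanolamine-phosphate lyase made by astrocytes, had 3 members. In its intron (chr3:130633630-130634686), coverage was 556, 637 and 380 in GR-con and 100, 115 and 89 in GR-KO, and coverage over background was 5.11 times as high in GR-con. The local background there was 34.96, 38.3 and 23.7 in GR-con and 6.08, 6.38 and 5.06 in GR-KO, and fold enrichment, which divides by it, was 15.5, 16.2 and 15.4 in GR-con and 14.3, 15.7 and 14.9 in GR-KO. The groups overlapped in fold enrichment, though not in coverage. The signal around the summit was lower in GR-KO along with that at the summit. The member at 32019 bp had a coverage of 232, 292 and 147 in GR-con and 29, 33 and 43 in GR-KO. The third, at 53864 bp, had 138, 115 and 117 in GR-con and 61, 53 and 54 in GR-KO. None of the 3 held the GR motif, and their best sites matched 8, 8 and 7 of the 12 letters.

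The local background, taken over the genome background of its library, was higher in every GR-con library than in every GR-KO library at 332 members, and at 15.1% of shared regions. At 5 members this difference was large enough beside the drop in coverage that mean fold enrichment in GR-con was less than 1.2 times that in GR-KO. They were in *Etnppl*, upstream of *Klf9* (ratio of folds 1.07) and *Ddit4* (1.19), and near *Gm26657* (1.13) and *Rtp1* (1.197). Their coverage over background was 2.42 to 5.11 times as high in GR-con, and their local background 2.35 to 5.47 times. Falls of the local background in that range were also found where fold enrichment differed more, as in *Asic2* (local background 3.79 times as high in GR-con, fold enrichment 1.22 times). Upstream of *Klf9* (chr19:23056809-23058868), coverage was 342, 321 and 280 in GR-con and 138, 131 and 114 in GR-KO, and the local background 32.2, 31.6 and 27.9 in GR-con and 14.2, 12.4 and 11.7 in GR-KO. Fold enrichments of the groups overlapped at 4 members, namely those of *Etnppl* and *Klf9* with regions nearest *Spsb1* and *Armc2*.

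In *Nr3c1*, the gene of GR and the target of the recombination, 3 shared regions were found. The intronic region at chr18:39428001-39428701 was a member (rank 30), with a coverage of 140, 151 and 130 in GR-con and 36, 24 and 33 in GR-KO. The promoter (chr18:39489179-39491789) was not, with a coverage of 421, 410 and 393 in GR-con and 378, 399 and 343 in GR-KO. Another intronic region (chr18:39472882-39473312) had 54, 41 and 63 in GR-con and 49, 37 and 52 in GR-KO, and its groups overlapped. By −log10 p the promoter was also lower in every GR-KO library, with 205, 199 and 183 in GR-con and 168, 177 and 145 in GR-KO, a ratio of 1.03. The intronic member was the one of the 3 with a ratio of 2 or more. The position of the loxP sites was not used here, so whether the weakened region lies in the removed segment was not tested, and these peaks do not check the labels.

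Most members stood alone. With members joined when less than 200 kb apart, 345 had no other member nearby, and 44 stretches of 2 or more held the other 93. Stretches of 3 were at *Etnppl*, *Zbtb16*, *Lifr*, *Cntn1* and *Auts2*. *Lifr*, the receptor gene for leukaemia inhibitory factor, had members with ratios of 4.73, 2.19 and 2.27, and *Cntn1*, an adhesion molecule gene, had ratios of 2.29, 2.39 and 2.09. The 3 near *Auts2* had 2.29, 3.32 and 4.45. The GR motif was present at 1 of 3 members at *Zbtb16* and at *Auts2*, and at 0 of 3 in the other stretches of 3.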

How the data were processed

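ATAC-seq was performed on sorted V1 astrocyte nuclei in 3 libraries per group. The authors ran the ENCODE ATAC-seq pipeline (version 2.2.0, multimapping 0, p threshold 0.01) on each library and deposited 1 peak list per library in mm10. Per peak the authors deposited a capped score, a fold enrichment (the ratio of the summit to its local background) and significance as −log10 p-value and −log10 q-value. Read counts were not used here. Members and lists were chosen with earlier results of these data known.

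Peaks were merged by an overlap of 1 bp, and the peak of highest −log10 p was taken per library and region. Fold and p were solved for the summit coverage x and local background l, with fold = (x + 1)/(l + 1) and p from a Poisson distribution of mean l. Within a tolerance of 0.05, 100% of the 1116429 peaks gave a whole x. The lowest local background of a library served as its relative depth, and local backgrounds came in steps of 150/10000, or 1 fragment end extended to 150 bp in a window of 10000 bp. Coverage resolves differences of whole counts only, intervals are exact (95%) and cover counting error, and coverage limits weak GR-KO peaks most.

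Sequence was read from the GRCm38 assembly, in which 0 peaks ended past a chromosome, and genes are from GENCODE M21. Motifs were read in windows of 201 bp on both strands, promoters reach 500 bp from a protein-coding TSS, and listed genes 100 kb. No test was made, since the rule used the contrast. Merging, solving and motif search were tested on simulated data. Python 3.11.15, pandas 2.3.3, numpy 2.4.6, scipy 1.17.1 and pysam 0.24.0 were used. Named regions are the 15 of largest ratio, the 5 of highest GR-con value, up to 6 per gene list by ratio, those with the full element, 3 on each side of each limit, those in *Nr3c1* and the 3 stretches with most members, of which 5 tied. Members beyond the first 6 of a gene list, and regions named for a low ratio of folds, for overlap of folds, at promoters or for the largest drop in coverage were chosen after their values were seen. Alternatives were another ratio (1.5 or 3) or minimum (10 or 40), fold enrichment, scaled −log10 p, coverage, a q-value limit of 0.01, peaks over 200 bp, autosomes, same-numbered pairs, each library left out, and other motif windows, motifs and distances.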

Additional observations from a re-analysis of the deposited data

How the results depend on the processing

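With the replicate block, each GR-con value being set against the GR-KO value of the same number, the rule gave 726 regions, and the share with the GR motif was 15.8%. The numbers were not shown to pair the samples. The number of members was 1278 with a ratio of 1.5, 121 with a ratio of 3, 283 with a minimum of 40, 239 by fold enrichment with a ratio of 1.5 and 160 by coverage over background. With −log10 p scaled by the library median it was 310. Leaving out 1 library in turn gave 570 to 855 members, a share with the motif of 14.3 to 16.5% and 11 to 16 of the 26 glucocorticoid-inducible genes. The member count was 855 without GR-con 3 and 692 without GR-KO 1. The rule asks less of a region when a library is left out, and each of these counts was above 438. The share with the GR motif was 10.8% with a ratio of 1.5, 29.8% with a ratio of 3, 24.0% with a minimum of 40, 24.2% with −log10 p scaled by the library median, 27.5% by coverage, 13.2% in a window of 50 bp, 1.83% for the full element and 43.8% for the half-site. The share at promoters was 5.02% with a limit of 2000 bp. The share of held-out pairs at 2 times or more was 59.0% over the 9 choices, 75.6% at 1.5 times, 91.5% at 1 time and 60.7% with scaled values; over the other regions that met the minimum it was 14.2% at 1.5 times and 58.4% at 1 time. Of the 18 other settings for promoters all stayed within the exact interval of 2.28%, as did 9 settings for the motif within that of 19.2%, and 9 member counts stayed within 1.5 times. The 11 glucocorticoid-inducible genes near a member became 6 with a ratio of 3, 6 with peaks wider than 200 bp, 7 by coverage and 17 with a ratio of 1.5, and were 10 at 50 kb and 14 at 200 kb. By the form of the rule, member counts rise with a lower ratio or minimum. The cause of the other shifts was not tested. The lists give no read counts, and the depth of a library enters −log10 p directly, so that weak GR-KO peaks rest on few counts.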
